A study of Mus musculus with 32 samples.

Results

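The 10 genes described here belong to the AP-1 transcription factor family and the immediate early response, followed in liver cells and tumors of mice. They are Fos, Fosb, Fosl1, Fosl2, Jun, Junb, Jund, Atf3, Egr1 and Ier2. They were chosen by name: every non-control probe whose gene name on the array was one of these 10 was taken, which gave 11 of 55681 probes and 10 of 34821 gene names. The levels are log2 values of the deposited intensity per probe, given for each of 32 samples in 8 groups of 4. Male Balb/c mice of 6 to 8 weeks received C26 colon carcinoma cells in the spleen, and control mice received PBS. After about 2 weeks endothelial cells (EC in control, ET in the tumor microenvironment, TME), Ito cells (IC and IT) and Kupffer cells (KC and KT) were isolated from the liver with collagenase and density gradients and were cultured for at most 24 hours. Primary colorectal tumor cells (TP) and liver metastasis cells (TM) made up the other 2 groups, and how their RNA was obtained is not given in the sources used here. The liver cells passed through digestion and culture, so that cell origin and handling cannot be told apart when they are compared with TM and TP. All samples of EC, IC, KC and TM carried Cy3 and all samples of ET, IT, KT and TP carried Cy5, and the TME and control samples of one number shared an array, as did TP and TM, so that dye and condition cannot be told apart in these comparisons.

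AP-1 is a dimer of proteins with a basic leucine zipper, in which a Fos family protein binds a Jun family protein, and Jun proteins can also pair with each other or with Atf3. Immediate early genes are transcribed within minutes of a growth factor, cytokine or stress signal without new protein synthesis, through MAP kinases and factors already present in the cell. In the liver, Fos, Jun, Egr1 and Atf3 are known for their fast response to partial hepatectomy, inflammation and toxic injury.

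The promoters of 5 of the 10 genes are shown as a view of the region that starts their transcription: Fos, Junb and Atf3 were called lower in both tumor comparisons below, and Jun and Fosb were called in 1 of them, in opposite directions. Jund and Ier2 were also called lower in both and are not shown. The sequences are the 250 bases before the start of the gene on its own strand, 5′ to 3′, from RefSeq on GRCm38.p6, where 7 of the 10 genes had an entry. They lie at chr12:85473640-85473889 (Fos, plus strand), chr7:19310046-19310295 (Fosb, minus strand), chr4:95052223-95052472 (Jun, minus strand), chr8:84978749-84978998 (Junb, minus strand) and chr1:191183334-191183583 (Atf3, minus strand). Capitals mark matches on either strand to the TATA box TATAAA, to the core TGACG of the cyclic AMP response element and to the related element TGACATCA.
Fos: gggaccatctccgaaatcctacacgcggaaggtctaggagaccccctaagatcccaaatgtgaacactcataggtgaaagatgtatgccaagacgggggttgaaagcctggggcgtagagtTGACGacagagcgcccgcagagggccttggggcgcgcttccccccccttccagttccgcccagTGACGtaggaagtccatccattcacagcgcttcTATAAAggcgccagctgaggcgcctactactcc
Fosb: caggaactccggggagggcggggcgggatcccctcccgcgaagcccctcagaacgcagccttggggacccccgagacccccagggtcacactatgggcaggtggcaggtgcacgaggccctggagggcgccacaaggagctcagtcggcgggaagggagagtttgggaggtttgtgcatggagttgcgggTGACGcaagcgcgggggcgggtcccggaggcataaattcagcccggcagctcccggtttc
Jun: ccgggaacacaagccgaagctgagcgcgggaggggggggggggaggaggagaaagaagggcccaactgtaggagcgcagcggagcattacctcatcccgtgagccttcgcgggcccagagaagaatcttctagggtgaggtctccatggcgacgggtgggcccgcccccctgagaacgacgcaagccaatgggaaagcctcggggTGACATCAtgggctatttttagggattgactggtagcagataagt
Junb: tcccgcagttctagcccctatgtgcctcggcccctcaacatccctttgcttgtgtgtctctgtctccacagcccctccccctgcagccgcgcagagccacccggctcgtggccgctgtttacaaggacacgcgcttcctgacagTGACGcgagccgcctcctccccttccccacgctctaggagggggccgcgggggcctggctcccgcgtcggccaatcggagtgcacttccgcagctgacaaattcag
Atf3: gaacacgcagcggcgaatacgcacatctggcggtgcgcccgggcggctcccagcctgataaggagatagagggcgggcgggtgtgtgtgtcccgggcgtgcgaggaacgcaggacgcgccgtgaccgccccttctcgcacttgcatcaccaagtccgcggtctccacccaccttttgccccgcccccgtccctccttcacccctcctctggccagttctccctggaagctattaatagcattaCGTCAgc
The TATA box lay 33 bases before the start of Fos, and the core lay 66 and 129 bases before it. The related element TGACATCA lay 45 bases before the start of Jun. The core was found once in Fosb, once in Junb and once in Atf3, where it lay 7 bases before the start. Jund and Fosl2 were searched as well, and neither held the TATA box, the core or TGACATCA. Of all 32851 promoters of this length, 12.4% held TATAAA, 17.8% the core and 2.93% TGACATCA. The full element TGACGTCA, which contains the core, was found in 1.55% of all promoters, the AP-1 site TGANTCA in 6.75% and the CArG box in 1.47%. No match to these 3 was present in the 7 promoters searched. This says nothing of Fosl1, Egr1 and Ier2 or of sites more than 250 bases before a start, which were not searched. A match is a string of letters and not a measured binding site.

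Before the members are described, the libraries that stand apart are given. Over 17086 probes well above background in all samples, the sample nearest to IC 4 was IT 1 and the one nearest to IT 4 was IC 1. Likewise, KC 4 was nearest to KT 1 and KT 4 to KC 1, and ET 2 was nearest to EC 2. EC 1 and EC 4 were close to each other (scaled median absolute deviation of the log2 differences 0.091), as were EC 2 and EC 3 (0.095). The median distance of an EC sample to its group was 0.33 to 0.35. Fos and Jun in EC, given below, followed these pairs. The 4 EC samples may thus hold less independent information than their number, which was not tested. The difference between TME and control on array 4 ran against the mean of the other arrays in Ito cells (r = -0.66 across probes), and the same held in Kupffer cells (r = -0.60). IT 2 and KC 3 were far from every other sample. The samples are kept under their labels here, and where a member's call changed without replicate 4 its value without it is given as well. Slide 1 carried EC, ET, IC and IT and slide 2 the remaining groups, so that slide and cell type cannot be told apart when Kupffer cells are compared with the other liver cells.

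Marker genes were summed as intensities in each sample and are given on the log2 scale. The 7 endothelial markers ranged from 15.4 to 15.7 in EC and from 12.7 to 14.9 in IT. The 7 Kupffer markers ranged from 16.1 to 19.0 in KC, but they also reached 18.7 in IC and 15.8 in EC, so Kupffer markers were present in the other fractions too. The 8 Ito markers were no higher in IC (17.0 to 18.1) than in EC (18.0 to 18.3). This sum rests almost wholly on Dcn, at 17.4 in IC and 18.1 in EC on average, while Col3a1, the next, was at 9.8 and 12.4. Lrat was higher in IC (4.16) than in EC (3.47) on average, and every other marker of the list was lower in IC. Lrat was well above background in 2 of 4 IC samples and 1 of 4 EC samples. In TM and TP at most 2 of 7 endothelial markers were well above background. The Kupffer markers summed to 7.6 to 9.9 in TM and 7.5 to 9.3 in TP. The 5 epithelial markers summed to 10.2 to 11.5 in TM and 9.8 to 12.1 in TP, above KC and KT, where the highest sum was 9.4. Their sum was higher than in any tumor sample in EC (12.7), IC (12.3 to 12.7) and IT (12.2 to 17.2). In ET it was 11.1 to 13.6, so this sum does not set the tumors apart from these fractions. Within that list the keratin Krt18 was at 10.7 in TM and 10.9 in TP on average and was well above background in all 4 samples of each group. It was at 12.3 in EC and 12.0 in IC on average. Krt8 was at 5.12 in TM and 6.68 in TP, while Epcam (3.1 on average in both), Cdh1 and Krt19 were well above background in at most 1 of 4 samples of either group. In bulk samples, fewer cells of a type and less RNA per cell cannot be told apart.

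**Figure D1:**
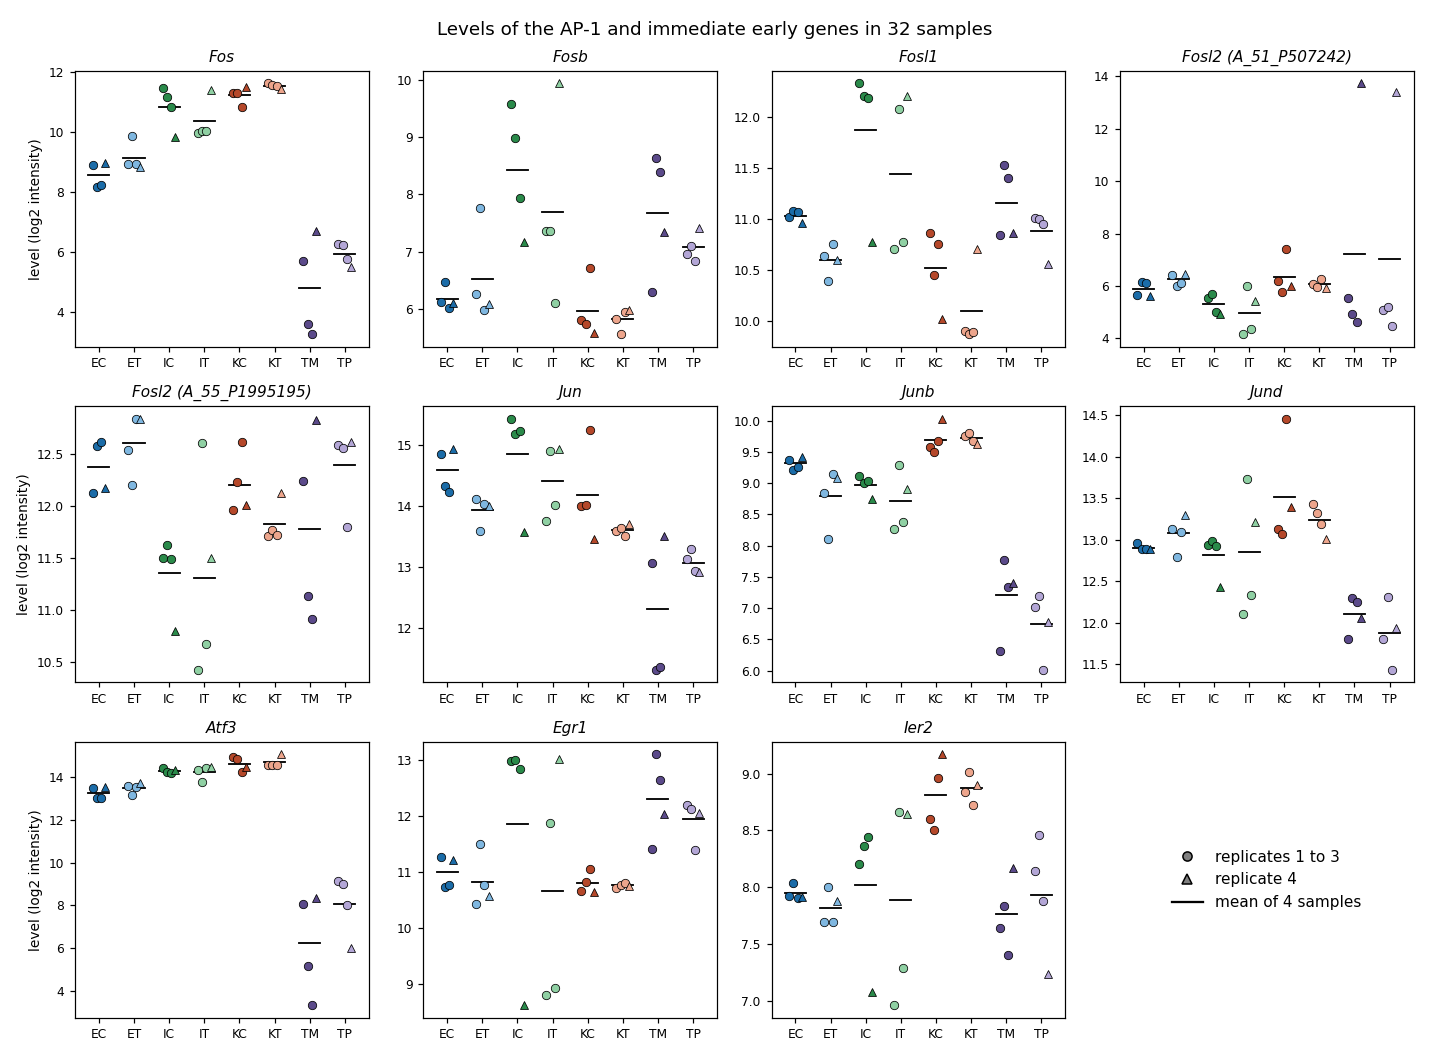
Levels of the 11 probes, on a log2 intensity scale, in the 8 groups; each point is 1 sample, triangles are replicate 4 and lines are means of 4 samples. Fos, Junb and Atf3 are lower in all TM and TP samples than in all liver cell samples, and Egr1 splits the Ito samples into 4 values from 12.84 to 13.02, 3 values from 8.63 to 8.93 and IT 2 at 11.87 between them.

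Fos, Atf3, Junb, Jund and Ier2 were lower in tumors than in Kupffer cells in both comparisons that the design allows within a slide and a dye, that is TM against KC and TP against KT. Jun was called lower and Fosb higher in TM against KC, and Fosl1 was called higher in TP against KT, and whether these differences differ between the comparisons was not tested. Of the 10 genes, 1 was called higher and 6 lower in TM than in KC at an adjusted p under 0.05, while 23.3% of all probes were called higher and 16.2% lower. In TP against KT, 1 was called higher and 5 lower, with 25.7% of all probes higher and 17.8% lower. The share of members called lower was above the background share in both comparisons, and no test was made of the list. Without replicate 4, 2 members were called higher and 7 lower in TM against KC, beside 22.5% and 15.3% of all probes, and 1 higher and 5 lower in TP against KT, beside 22.7% and 16.6%. The summed Kupffer markers moved with these differences, at 16.1 to 19.0 in KC and 17.4 to 18.5 in KT against at most 9.9 in a tumor sample, and their part in the levels of the members was not tested.

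Fos, the founding partner in AP-1 and one of the fastest of the early genes, was measured by 10 spots of 1 probe at chr12:86817900-86817959 of mm9. Its level was 11.28, 11.30, 10.84 and 11.50 in KC, and 11.62, 11.57, 11.51 and 11.43 in KT. It was 5.68, 3.58, 3.25 and 6.70 in TM and 6.27, 6.21, 5.76 and 5.48 in TP. The tumor samples lay below all Kupffer samples without overlap, and within TM the samples 2 and 3 were the lowest. The difference was -6.43 ± 0.51 (log2, SE; 86.1-fold lower) for TM against KC (limma adjusted p = 3.65e-11) and -5.60 ± 0.51 (48.6-fold lower) for TP against KT (limma adjusted p = 4.4e-10). Fos was well above background in 2 of 4 TM and 3 of 4 TP samples, so the size of the fold rests in part on dim values. The difference for TM lay between -7.12 and -4.33 over the 16 alternatives, and Fos was called lower in all of them.

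Atf3, a stress-induced factor that pairs with Jun proteins and often represses, was at 14.94, 14.86, 14.23 and 14.48 in KC and at 14.54, 14.55, 14.56 and 15.06 in KT. In TM it was 8.06, 5.15, 3.34 and 8.35, and in TP 9.16, 9.02, 8.01 and 5.99. No tumor sample came near the liver cell samples, which all lay at 13.04 or above. The difference was -8.40 ± 0.70 (SE) for TM against KC (limma adjusted p = 9.06e-11) and -6.63 ± 0.70 for TP against KT (limma adjusted p = 6.84e-09). Atf3 was well above background in 2 of 4 TM and 3 of 4 TP samples.

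Junb, a Jun protein that opposes Jun in many settings, was at 9.58, 9.50, 9.67 and 10.03 in KC and at 6.32, 7.76, 7.33 and 7.41 in TM. It was 9.76, 9.80, 9.67 and 9.63 in KT against 7.01, 7.20, 6.02 and 6.79 in TP. All Kupffer samples were higher than all tumor samples. The difference was -2.49 ± 0.27 for TM against KC (limma adjusted p = 1.46e-08), and between TP and KT it was -2.96 ± 0.27 (limma adjusted p = 5.24e-10). Jund, the Jun protein that depends least on a stimulus, differed by -1.41 ± 0.28 in TM (limma adjusted p = 0.000162) and by -1.37 ± 0.28 in TP (limma adjusted p = 0.000218), and the groups did not overlap. Ier2, a nuclear protein of the early response with no zipper, differed by -1.05 ± 0.32 in TM (limma adjusted p = 0.00949) and by -0.94 ± 0.32 in TP (limma adjusted p = 0.0184). The call of Ier2 was lost without replicate 3 in TM (-0.88, limma adjusted p = 0.102) and in TP (-0.97, limma adjusted p = 0.0654), and in TP also without replicate 4 (-0.70, limma adjusted p = 0.0698), so that it was made in 14 and 13 of 16 alternatives.

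Jun, the main partner of Fos, stood at 14.00, 14.02, 15.25 and 13.46 in KC and at 13.07, 11.31, 11.36 and 13.51 in TM. KC 4 at 13.46 lay just below TM 4 at 13.51, so the groups overlapped. The difference was -1.87 ± 0.44 (limma adjusted p = 0.00089), and it was called in 12 of 16 alternatives, but not without replicate 3 (-1.19, limma adjusted p = 0.0681). Between TP and KT it was -0.54 with a 95% interval of -1.44 to 0.36 and was not called. The groups did not overlap, but how many of all probes separate in this way was not counted. Jun was called lower there in 2 of 16 alternatives.

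Fosb, a Fos protein with a strong activation domain, went the other way. It was at 5.80, 5.73, 6.70 and 5.58 in KC and at 6.30, 8.63, 8.38 and 7.35 in TM, where samples 2 and 3 were high. The difference was 1.71 ± 0.59 (limma adjusted p = 0.0218), with overlap between TM 1 and KC 3. It was called in 11 of 16 alternatives, but not without replicate 2 (1.32, limma adjusted p = 0.188) or replicate 3 (1.72, limma adjusted p = 0.058). Fosl1, a Fos protein without that domain, was 9.90, 9.87, 9.89 and 10.71 in KT and 11.01, 11.00, 10.95 and 10.56 in TP, and its difference of 0.79 ± 0.32 passed narrowly (limma adjusted p = 0.0488) and was called in 8 of 16 alternatives. Without replicate 1, 2 or 3 its difference was 0.67 to 0.70 and not called, and without replicate 4 it was 1.10 (limma adjusted p = 0.00188). Egr1, a zinc finger factor of the early response, was 1.50 higher in TM than in KC with an adjusted p of 0.134 by limma, although the groups did not overlap. Without replicate 4 it was called higher (1.53, limma adjusted p = 0.0453). In TP against KT neither Fosb nor Egr1 was called, but both were higher in TP without overlap. How many of all probes separate in this way was not counted. Neither this separation nor that of Egr1 in TM is therefore read as a result about these genes. Fosb was at 7.07 in TP and 5.83 in KT on average, and Egr1 at 11.9 and 10.8. There Fosb was called higher in 2 and Egr1 in 3 of 16 alternatives.

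Fosl2 was measured by 2 probes that disagree. The probe of highest variance (chr5:32455088-32455147 of mm9) read 5.52, 4.94, 4.61 and 13.74 in TM and 5.10, 5.19, 4.46 and 13.40 in TP. Its high values in TM 4 and TP 4 come from 1 spot on 1 array, which the scanner program marked as an outlier in both channels and the deposited table kept. The difference from KC was 0.87 ± 1.50 with this spot, and with outlier spots left out it was -1.36 (limma adjusted p = 0.00448). Without replicate 4, whose array holds the spot, this probe was called lower in TM (-1.42, limma adjusted p = 0.0131) and in TP (-1.19, limma adjusted p = 0.0354). The other probe (chr5:32460076-32460135) read 12.24, 11.14, 10.92 and 12.83 in TM and 11.97, 12.23, 12.62 and 12.00 in KC, and its difference of -0.42 ± 0.37 was not called.

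**Figure D2:**
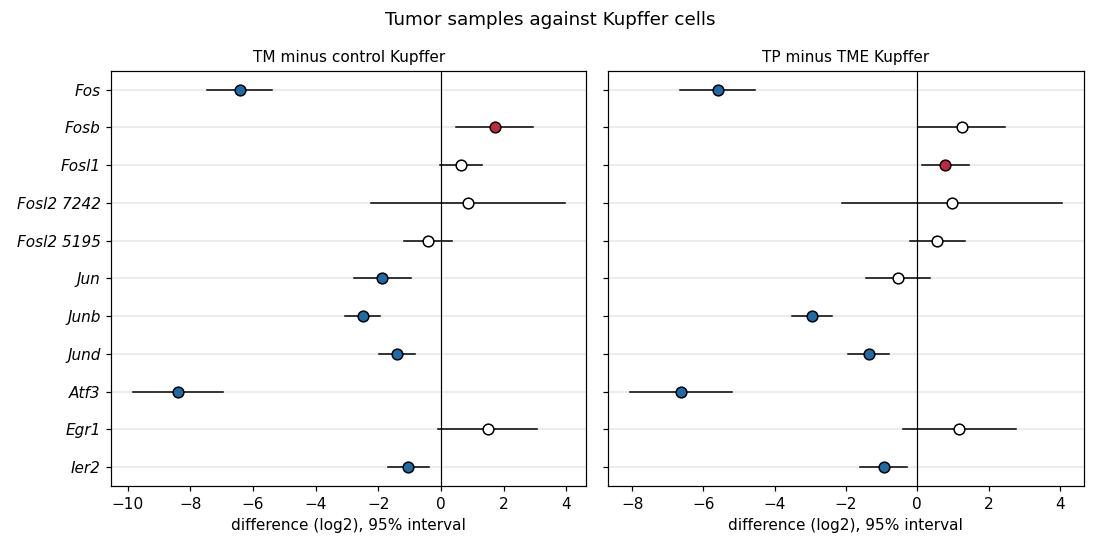
Difference of the log2 level, with its 95% interval from limma, for TM minus control Kupffer and TP minus TME Kupffer; blue points were called lower, red points higher and white points were not called. Fos and Atf3 differ by 5.60 or more in size in both panels.

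Between TP and TM no member was called. The background was 2.05% of probes higher and 0.961% lower, and 2 members had an unadjusted p under 0.05 in limma. Both were higher in TP on average: Atf3 by 1.82 (95% interval 0.39 to 3.25, limma adjusted p = 0.167) and Fos by 1.13 (0.08 to 2.17, limma adjusted p = 0.261). Neither gene was well above background in TM 2, TM 3 and TP 4, so the sizes on arrays 2, 3 and 4 rest on dim values. Over the 16 alternatives the difference ranged from 0.16 to 1.91 for Fos and from 0.87 to 3.21 for Atf3. On arrays 2 and 3 Atf3 was 3.87 and 4.67 higher in TP, on array 1 it was 1.10 higher, and on array 4 the difference was -2.36. Without replicate 4 both Atf3 (difference 3.21, limma adjusted p = 0.0189) and Fos (1.91, limma adjusted p = 0.0243) were called higher in TP, with 1.7% of all probes called higher and 1.08% lower. Across probes, the difference on array 1 also did not follow the mean of the other arrays (r = -0.19, and -0.07 for array 4). For arrays 2 and 3 r was 0.64 and 0.63. Array 4 was thus not the only array apart, and these calls rest mainly on arrays 2 and 3. TM 1 and TM 4 were nearest to TP samples over all probes, and their Fos and Atf3 levels were the highest of TM.

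In the TME comparison no member was called in any of the 3 cell types. The background was 0.578% of probes higher and 0.564% lower in endothelial cells, 0.269% and 0.0198% for IT against IC, and 0.372% and 0.0647% for KT against KC. No member reached an unadjusted p under 0.05 by limma in these comparisons. The fit uses 1 spread per probe for all 8 groups, tumors included. For Atf3 the SD was 2.41 in TM and 0.27 in EC, so a small change in endothelial cells could be missed. For Egr1 the SD was larger in Ito cells (2.16 in IC) than in TM (0.73). The lowest limma adjusted p among members was 0.734 for ET against EC, 0.621 for IT against IC and 0.853 for KT against KC. No member was called for a difference of this change between cell types, and none had an unadjusted p under 0.05 there in limma. The member with the lowest unadjusted p was Fos, whose change in Ito cells minus that in endothelial cells was -1.04 ± 0.72 (SE). Of all probes, 0.111%, 0.0808% and 0.00359% were called in the 3 comparisons of cell types.

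In Ito cells the mean of Egr1 covered samples that lay far apart. Egr1 was at 12.98, 13.00, 12.84 and 8.63 in IC and at 8.80, 11.87, 8.93 and 13.02 in IT, so that IC 4 lay with IT 1 and IT 3, and IT 4 lay with IC 1 to 3. On arrays 1, 2 and 3 Egr1 was lower in IT by differences of -4.18, -1.13 and -3.91, and on array 4 it was higher by 4.39. The mean difference was -1.21 with a 95% interval of -2.79 to 0.37 (limma adjusted p = 0.621). Without replicate 4 it was -3.07 (limma adjusted p = 0.00311).

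Fosb, Fosl1, Fos and Jun were likewise lower in IT on arrays 1 to 3 and higher on array 4. The remaining members, Fosl2, Junb, Jund, Atf3 and Ier2, were higher on 2 arrays and lower on 2. Of these, Fosl2 (both probes), Junb, Jund and Ier2 were lower on arrays 1 and 3 and higher on array 4, as Egr1 was. They were higher on array 2, which holds IT 2. Fosb was 9.58, 8.99, 7.94 and 7.16 in IC and 7.37, 7.36, 6.10 and 9.94 in IT, and Fosl1 was 12.34, 12.21, 12.19 and 10.77 against 10.70, 12.08, 10.78 and 12.21. Without replicate 4, Fosb (-1.90, limma adjusted p = 0.0478) and Fosl1 (-1.06, limma adjusted p = 0.0167) were called lower in IT besides Egr1, that is 3 of 10 members, while 3.94% of probes were called higher and 3.89% lower. Fos was 11.46, 11.17, 10.82 and 9.83 in IC and 9.96, 10.04, 10.04 and 11.40 in IT, and its difference without replicate 4 was -1.14 (limma adjusted p = 0.131). Jun was 15.43, 15.17, 15.23 and 13.57 in IC and 13.74, 14.91, 14.01 and 14.94 in IT. Atf3 lay between 13.79 and 14.47 in all Ito samples and was higher in IT on arrays 3 and 4.

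IT 2 stood apart in its markers as well as over all probes. Its summed epithelial markers were at 17.2 against 12.2 to 12.3 in the other IT samples, and its summed Kupffer markers were at 14.4 against 16.5 to 18.4. Leaving out IT 2 and KC 3 besides replicate 4, a choice made after seeing the data, gave 7 of 10 members called lower in IT, with 7.11% of probes called higher and 6.98% lower. These were Fosb, Fosl1, Fosl2, Jun, Jund, Egr1 and Ier2. Leaving out samples that lie far from their group narrows the spread by construction.

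Among the Ito samples, the summed markers of neutrophils, Kupffer cells and hepatocytes were high in IC 4, IT 1 and IT 3, where Egr1 was low. The 5 neutrophil markers summed to 9.7, 9.6, 9.5 and 13.8 in IC 1 to 4 and to 13.7, 14.1, 13.0 and 9.9 in IT 1 to 4. The Kupffer markers summed to 18.7 in IC 4 against 16.4 to 16.7 in the other IC samples, and to 18.4, 14.4, 18.4 and 16.5 in IT 1 to 4. The hepatocyte markers summed to 17.5 in IC 4 and to 15.6 to 15.9 in the others, and to 17.2, 15.0, 17.2 and 16.0 in IT 1 to 4. IT 2 was high in neutrophil markers and low in the other 2 sums. Their part in the levels of Egr1, Fosb and Fosl1 was not tested.

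In endothelial cells Jun, Junb and Fosl1 were lower on all 4 arrays and their groups did not overlap, but the differences did not pass (limma adjusted p of 0.734 or higher). How many of all probes separate in this way was not counted, so the separation is not read as a result about these genes. Ier2 was also lower in ET on all 4 arrays, by differences of -0.23 to -0.03, and Atf3 was higher on all 4, by 0.13 to 0.48. Jun was at 14.86, 14.32, 14.23 and 14.94 in EC and at 14.12, 13.59, 14.04 and 13.99 in ET, with a difference of -0.65 ± 0.44. Junb differed by -0.52 ± 0.27 and Fosl1 by -0.44 ± 0.32, and Fosl1 was called lower in 2 of 16 alternatives, both of which fit the pair of groups alone. Fos and Fosb were highest in ET 2, at 9.87 and 7.76, and the sample nearest to ET 2 was EC 2. The epithelial markers summed to 13.6 in ET 2 against 11.1 to 11.2 in the other ET samples. Its hepatocyte markers summed to 14.0 against 12.3 to 12.4. The neutrophil markers summed to 9.14 to 9.97 in EC and 11.7 to 12.9 in ET, and the Kupffer markers to 15.2 to 15.8 in EC and 16.0 to 16.6 in ET, and their part in these differences was not tested. In Kupffer cells Fos was 0.30 higher in KT with a 95% interval of -0.74 to 1.35, and the difference of Fosl1 was -0.43, or -0.80 without replicate 4 (limma adjusted p = 0.0988). Without replicate 4, 1.6% of probes were called higher and 1.85% lower in Kupffer cells, and none of the 10 members was among them.

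**Figure D3:**
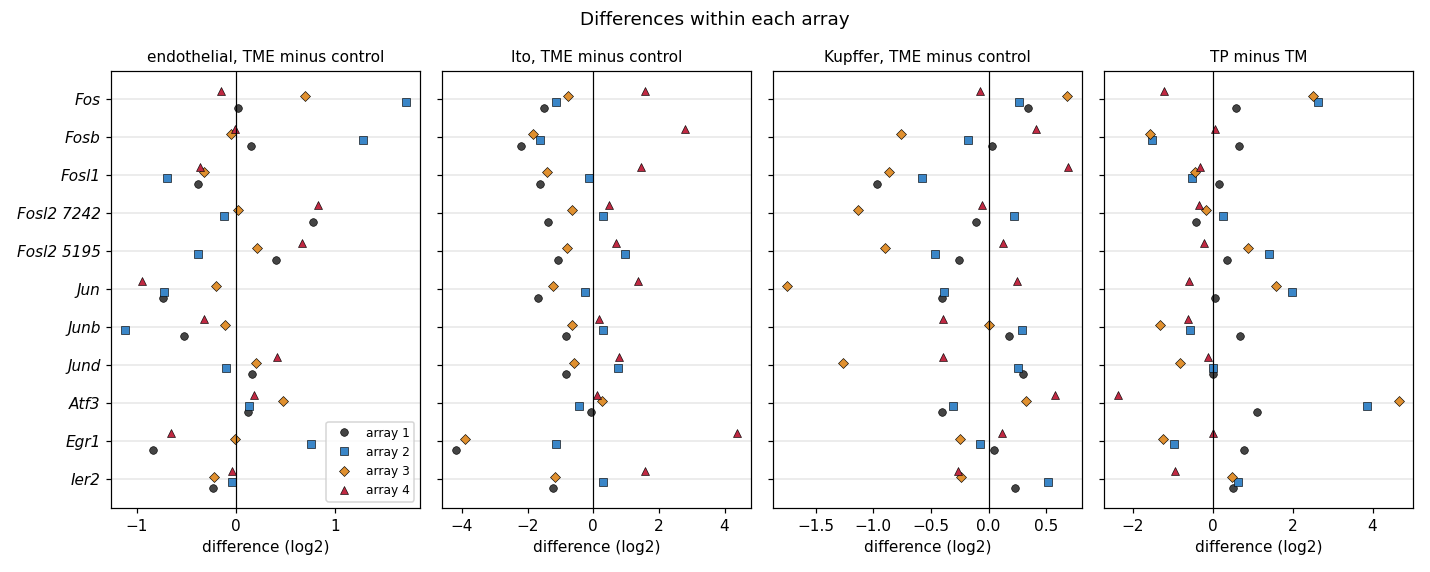
Difference of the log2 level within each array for the 11 probes, with TME minus control in 3 panels and TP minus TM in the fourth; the symbols are the 4 arrays and each panel has its own axis range. In Ito cells, array 4 lies to the right of 0 where arrays 1 and 3 lie to the left for every member except Atf3.

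Among the control liver cells, Fos was lower in EC than in IC and in KC, where the second comparison crosses slides. It was at 8.90, 8.15, 8.24 and 8.97 in EC, all below the IC and KC samples. It was lower in EC than in IC by a difference of -2.25 ± 0.51 (4.77-fold; limma adjusted p = 0.00394) and higher in KC than in EC by 2.67 ± 0.51 (6.34-fold; limma adjusted p = 0.000319). Between KC and IC it differed by 0.41 with a 95% interval of -0.63 to 1.46. In the order of all 8 means for Fos, KT, KC, IC and IT came first and overlapped as neighbours, then ET and EC, then TP and TM.

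Fosb was highest in IC on average. It differed between EC and IC by -2.24 ± 0.59 (limma adjusted p = 0.014) and between KC and IC by -2.46 ± 0.59 (limma adjusted p = 0.0047), with no overlap in either. Fosl1 was lower in KC than in IC by a difference of -1.35 ± 0.32 (limma adjusted p = 0.00417), with overlap at IC 4. Some members were called only in alternatives. Atf3 differed between EC and IC by -1.09 to -0.96 over the 16 alternatives and was called lower in EC in 2 of them. It was 1.21 to 1.72 higher in KC than in EC and was called in 4, as was Ier2. In KC against IC, Junb was called higher in 5 and Fosl2 in 3. For EC against IC, the call of Fos was lost without replicate 1 or 2 (limma adjusted p = 0.0672 and 0.061), and that of Fosb without replicate 1, 2 or 3 (0.174, 0.0932 and 0.0601). For KC against IC, the call of Fosb was lost without replicate 1 or 2 (0.0973 and 0.0555) and that of Fosl1 without replicate 2 (0.0549). For EC against IC, 0 members were called higher and 2 lower, beside 5.72% and 4.17% of all probes. For KC against EC, 1 was higher and 0 lower, beside 8.95% and 12.1%. For KC against IC, 0 were higher and 2 lower, beside 7.24% and 7.57%.

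Without replicate 4, Egr1 (-2.01, limma adjusted p = 0.0315) and Fosl1 (-1.19, limma adjusted p = 0.00548) were also called lower in EC than in IC, which made 4 of 10 members, beside 6.04% of probes higher and 4.51% lower. In KC against IC, 3 were then lower, beside 6.77% higher and 6.69% lower, with Egr1 added at a difference of -2.09 (limma adjusted p = 0.0211). For ET against IT no member was called through its representative probe, and 2 had an unadjusted p under 0.05 in limma. The background there was 4.78% higher and 3.48% lower. The second probe of Fosl2 was higher in ET than in IT by 1.30 ± 0.37 (limma adjusted p = 0.0294).

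**Figure D4:**
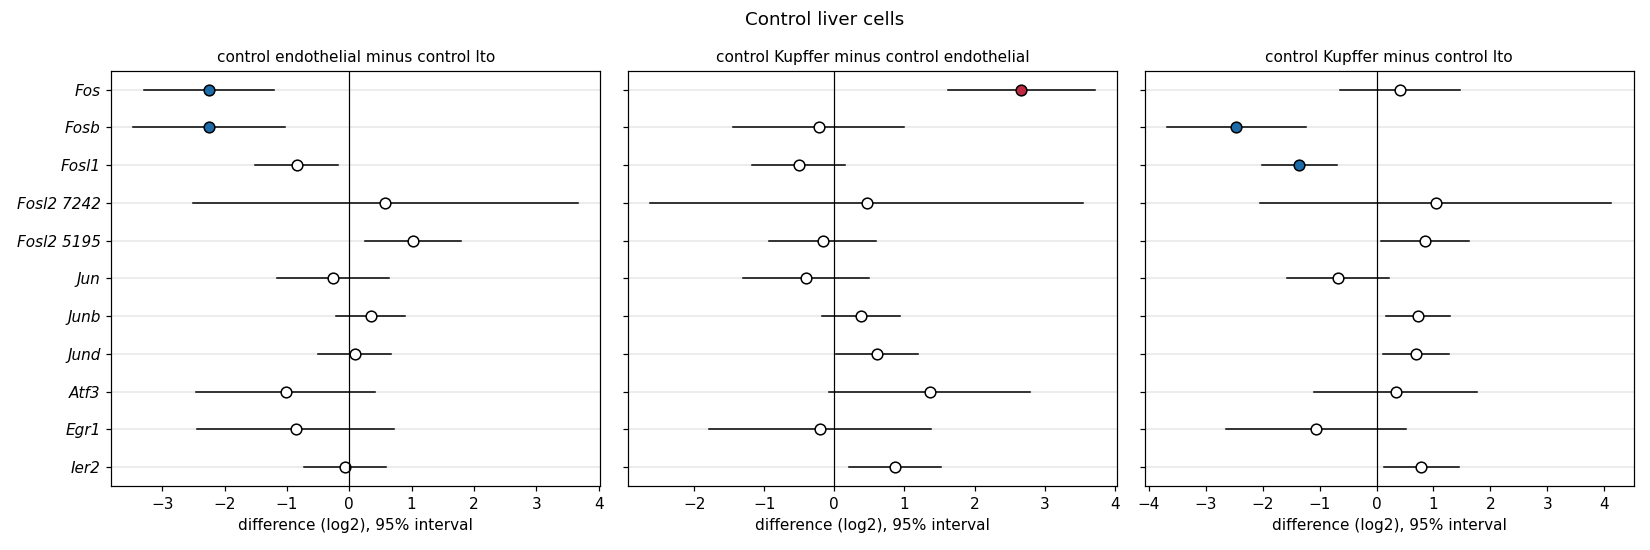
Difference of the log2 level with its 95% interval from limma among control endothelial, Ito and Kupffer cells; filled points were called and white points were not. The panels with Kupffer cells compare cells of different slides.

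Genes that work around AP-1 were counted in the same fits, where 16.2% of all probes were lower and 23.3% higher in TM than in KC, and 17.8% lower and 25.7% higher in TP than in KT. No list was tested against these shares. Of 11 AP-1 partners and related zipper proteins, 8 were lower in TM than in KC and 9 lower in TP than in KT, with none higher. Maf, a factor of macrophages, stood at 6.21 in TP and 13.2 in KT on average. Of 26 other immediate early genes, 17 were lower and 1 higher in TM, and 15 lower and 1 higher in TP. Zfp36, which marks cytokine RNA for decay, was at 4.96 in TM and 11.03 in KC, a difference of -6.07, and was well above background in 2 of 4 TM samples.

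The 5 feedback phosphatases, which switch MAP kinases off, were lower in 3 cases in TM and in 4 in TP. Dusp1 differed by -4.76 between TM and KC and by -1.15 between EC and IC (limma adjusted p = 0.000911). Of 16 upstream kinases and factors, 4 were higher and 5 lower in TM, so this list was divided. Of 11 AP-1 target genes 3 were higher and 6 lower in TM, with Spp1, the matrix protein osteopontin, higher by 6.64 and Mmp13, a collagenase, at a difference of -5.64. Median differences over the measured genes of each list for TM against KC were -2.97 for the partners, -2.10 for the other early genes, -2.68 for the phosphatases, 0.20 for the kinases and -1.33 for the targets, and the median over all probes was 0.08.

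In TME against control none of these 5 lists, nor the 5 measured heat shock genes, had a gene called in any cell type. Among control cells, 10 of 26 other early genes were higher in KC than in EC, including Zfp36 by 2.25 and Tiparp by 2.24, and none was lower, beside 8.95% of all probes higher and 12.1% lower. All 5 heat shock genes were lower in KC than in IC, beside 7.57% of all probes, and 3 of 5 were lower in EC than in IC, beside 4.17%. Of the 26 other early genes, 4 were lower and 1 higher in EC than in IC, and the higher one was Ctgf, a matrix-associated gene, with 15.2 in EC and 10.5 in IC on average.

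Over the 24 liver cell samples, the genes whose levels followed Fos most closely were Cd14 (r = 0.95), the receptor of bacterial lipopolysaccharide on macrophages, Dusp1 (r = 0.94), Lrrc8d (r = 0.93) and Tex33 (r = 0.93). Cpsf7 (r = 0.90) was among the genes closest to Jun, and for Egr1 the closest named genes were Eif6 (r = 0.90), Slc25a38 (r = 0.87) and Rnd1 (r = 0.86). They are from the top 5 for each member among 13354 probes well above background in all 24 samples, and not all of the 5 are named. The samples share arrays and fall into 3 cell types, so the values describe these samples only.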

How the data were processed

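The authors scanned 16 two-colour Agilent arrays with Feature Extraction and deposited the scanner intensities of each spot and, on a linear scale, a table with the intensity of each probe in every sample. The table follows the quantile-normalized processed signal (lowest correlation of a channel 0.99986); its normalization method is named in the study's methods. No spot was saturated, and 38.4 to 57.1% of spots per channel were well above background. Precision is limited by having 4 arrays per group. The labels name separate replicates, and the methods call them biological.

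The log2 of the deposited values was fitted with limma 3.58.1 in R 4.3.3, all 32 samples to 8 groups, with Benjamini-Hochberg adjustment over 55681 probes, and a probe was called at an adjusted p under 0.05. A gene with several probes was represented by the probe of highest variance, and both Fosl2 probes are given. All members are named; of other pathway genes, at most 3 per list and comparison with the lowest adjusted p, and the 5 genes most like Fos, Jun and Egr1, of which those without a gene symbol are not named and 1 is not reported here. The members and lists were chosen with earlier results of these data known. Marker lists covered endothelial, Ito, Kupffer, hepatocyte, neutrophil, epithelial and lymphocyte genes; the 4 lymphocyte markers summed to 9.0 to 11.9 on the log2 scale in all samples. The steps were tested on simulated data with probe means and spreads taken from these samples. In ET against EC, 29.9% of planted changes of 1 on the log2 scale were called, 74.6% of changes of 2 and 97.0% of changes of 4, with 12 false calls. A member that was not called may therefore still have changed. Alternatives are given in the closing section. Same-numbered samples share an array: the correlation of their deviations from the group means was 0.12 to 0.52 except on array 4 of Ito (-0.29) and Kupffer cells (-0.20).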

Additional observations from a re-analysis of the deposited data

Results flagged for a closer look

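Among the 88 sets of 4 samples formed by 11 probes and 8 groups, 17 had a highest or lowest sample set apart from the others, measured as its gap to the next sample divided by the range of the 4. Chance alone would flag about 1 in 20 sets. In IC, replicate 4 was the lowest for Egr1 (0.965), Fosl1 (0.909), Jund (0.895), Jun (0.863) and Fosl2 by its second probe (0.834). In IT, replicate 4 was the highest for Fos (0.942). In KT, replicate 4 was the highest for Atf3 (0.968), Fosl1 (0.959) and the second probe of Fosl2 (0.858). In ET, replicate 2 was the highest for Fos (0.889) and Fosb (0.838).

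In the tumors, replicate 4 was the highest for the first Fosl2 probe in TM (0.900) and in TP (0.918), the spot marked as an outlier by the scanner program. In TP, replicate 4 was the lowest for Fosl1 (0.875) and replicate 3 the lowest for the second Fosl2 probe (0.937). In EC, replicate 1 was the highest for Jund (0.935) and replicate 2 for Ier2 (0.887), where the levels span less than 0.2 on the log2 scale.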

How the results depend on the processing

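Over the 16 alternatives, 1600 differences of single members were recomputed: 40 lost their call, 64 gained one in the same direction, 14 with a call in either setting turned to the other direction, 20 uncalled ones moved by more than the spread between replicates, and the remaining 1462 did none of these. Of 160 counts of called members, 125 stayed within 1.5 times, 24 rose and 11 fell, and a count that stayed can hold different members. With replicate numbers or doubted samples left out, the number of members called ranged from 0 to 7 in IT against IC, 0 to 1 in KT against KC, 0 to 4 in TP against TM, 0 to 4 in EC against IC, 0 to 4 in ET against IT, 0 to 4 in KC against IC, 4 to 10 in TM against KC, 4 to 8 in TP against KT and 1 to 2 in KC against EC. In ET against EC it stayed at 0. The share of all probes called moved as well. In IT against IC it was 0.269% higher and 0.0198% lower with all samples. Without replicate 4, IT 2 and KC 3 it was 7.11% and 6.98%. For the settings named below these shares are not given, so their counts cannot be set against the whole array. Leaving out IT 2 and KC 3 was chosen after seeing the data.

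In ET against IT, 1 member was called with the scanner signal, with normexp and quantile normalization, with the 75th percentile and with the probe of highest mean, and 2 with loess and Aquantile. In KC against EC, 2 were called with either normexp setting and with the filter on dim probes, and 3 with only the groups compared or with the methods' t-test. In KC against IC, 4 were called with either normexp setting, 1 with the methods' t-test and 0 with the methods' thresholds (adjusted p under 0.001 and at least 4-fold). Those thresholds left 3 in TM against KC, 3 in TP against KT and 0 in EC against IC. In ET against EC, 1 was called with only the groups compared and 1 with the methods' t-test.

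With the replicate block (array as a term, or as a random effect between arrays) the count stayed at 0 in the 4 comparisons within arrays, at 7 in TM against KC, and was 5 in TP against KT, where Fosl1 was lost.

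Fosl2 turned from higher to lower in TM against KC with the scanner signal (-1.36), normexp and quantile (-0.60), the 75th percentile (-1.44), loess and Aquantile (-0.56), without replicate 4 (-1.42) and without IT 2 and KC 3 besides (-0.95). In TP against KT the values were -1.18, -0.39, -1.33, -0.36, -1.19 and -1.19. The first 4 settings leave out the outlier spot, and the last 2 its array. Without replicate 4, IT 2 and KC 3, Jund turned to -0.73 in IT against IC and Ier2 to 0.67 in ET against IT, and the cause was not tested. With replicates left out, these ranged up to 0.31 for Jund and down to -0.34 for Ier2, and Fosl2 ranged up to 2.09 (TM against KC) and 1.90 (TP against KT). No dye was swapped, and low signal limits Fos and Atf3 in tumors.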
